A study of Mus musculus with 87 samples.

Results

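The 9 genes described here encode transcription factors of the neural crest and of epithelial-mesenchymal transition: Sox9, Sox10, Tfap2a, Tfap2b, Snai1, Snai2, Twist1, Zeb1 and Zeb2. They were taken by name, with earlier results of these data known. Each of 13 tables of RNA comparisons holds 26171 gene symbols, and all 9 genes were present in every table. The RNA came from the mouse embryonic stem cell line 129-B13, kept in serum with LIF, and from neuronal precursors made from it with retinoic acid from day 4 and harvested on day 8. Suz12, a core subunit of Polycomb repressive complex 2 (PRC2), was altered around its exon 4. Stem cells were wild type (WT, 3 samples), WT with exon 4 made constitutive (CSex4, 2), WT with exon 4 deleted (Deltaex4, 2), full Suz12 knock-out (KO, 3), and knock-out cells given back the long isoform (KO-L, 2) or the short isoform (KO-S, 2). Stem cells also included the knock-out with the long or short isoform placed in the Rosa26 locus with a change named 3D (KO-L3D, 2, and KO-S3D, 2), which lies at position 196, past exon 4. For neuronal precursors there were 4 WT samples and 2 each of the exon 4 lines (CSex4 and Deltaex4), of KO and of its rescues KO-L and KO-S. The labels do not say whether replicates were separate cultures. The p-values come from fits that the authors name paired. They measure the spread left between these samples after pairing, which may be technical.

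Neural crest cells arise at the border of the neural plate, pass through an epithelial-mesenchymal transition and migrate to form neurons and glia of the peripheral nervous system, melanocytes and facial skeleton. Tfap2a and Tfap2b act early at that border, Snai1, Snai2, Twist1, Zeb1 and Zeb2 repress epithelial genes such as Cdh1 at E-box sequences, and Sox9 and Sox10 act in crest precursors and their progeny. Sox9, Zeb1 and Zeb2 are also made in neural precursors outside the crest. PRC2 places trimethylation on lysine 27 of histone H3 (H3K27me3), a mark of repressed developmental genes in embryonic stem cells.

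The deposited lists of stem cell regions placed most of the 9 genes in or beside Polycomb chromatin. The Suz12 list holds 2865 regions and the H3K27me3 list 6882, both set by the authors at a false discovery rate of 5%. The files name WT but give neither the groups compared nor the genome build, so the lists are used here only for position, read as mm10, the build in the submitters' processing notes. A Suz12 region lay within 2500 bp of a gene end for 6 of the 9 genes, against 10.7% of 21883 protein-coding genes, and an H3K27me3 region for 9 of 9, against 20.6%. Tfap2a held a Suz12 region of 13901 bp (chr13:40726704-40740604), Tfap2b one of 10173 bp (chr1:19205454-19215626) and Sox9 one of 6308 bp (chr11:112779879-112786186). Twist1 held one of 4295 bp (chr12:33955433-33959727), and Sox10 one of 1969 bp (chr15:79162654-79164622). The H3K27me3 regions covered 100% of Sox9 and of Twist1. Zeb1 had its Suz12 region 573 bp inside one end of the gene, and Zeb2 had a region of 6066 bp inside the gene (chr2:45107310-45113375), 4067 bp from the nearer end. Snai1 and Snai2 had no Suz12 region nearby (the nearest were 349088 and 1177631 bp away), yet H3K27me3 regions covered 78.1% of Snai1 and 59.2% of Snai2.

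RefSeq promoters of build GRCm38.p6, 250 bases before to 50 after a start, were found for 5 of the 9 genes (9 promoters). The 3 that follow lay with all 300 bases inside both a Suz12 and an H3K27me3 region and belong to the genes with the largest fold changes in the knock-out, Tfap2a in stem cells and Tfap2b and Zeb2 in precursors. CpG, the dinucleotide that Polycomb-bound promoters are rich in, stands in capitals.
Tfap2a chr13:40733746-40734045 (minus strand): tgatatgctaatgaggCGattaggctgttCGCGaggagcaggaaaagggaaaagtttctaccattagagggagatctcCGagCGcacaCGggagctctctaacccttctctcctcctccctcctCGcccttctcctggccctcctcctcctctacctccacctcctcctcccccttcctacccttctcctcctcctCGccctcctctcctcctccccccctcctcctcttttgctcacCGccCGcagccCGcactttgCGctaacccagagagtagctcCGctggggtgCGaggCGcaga
Tfap2b chr1:19211804-19212103 (plus strand): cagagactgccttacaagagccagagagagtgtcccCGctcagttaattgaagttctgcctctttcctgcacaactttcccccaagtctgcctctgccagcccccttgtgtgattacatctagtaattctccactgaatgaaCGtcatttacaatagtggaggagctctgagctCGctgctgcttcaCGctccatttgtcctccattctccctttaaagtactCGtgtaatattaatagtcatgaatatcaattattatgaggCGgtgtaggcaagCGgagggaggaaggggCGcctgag
Zeb2 chr2:45110228-45110527 (minus strand): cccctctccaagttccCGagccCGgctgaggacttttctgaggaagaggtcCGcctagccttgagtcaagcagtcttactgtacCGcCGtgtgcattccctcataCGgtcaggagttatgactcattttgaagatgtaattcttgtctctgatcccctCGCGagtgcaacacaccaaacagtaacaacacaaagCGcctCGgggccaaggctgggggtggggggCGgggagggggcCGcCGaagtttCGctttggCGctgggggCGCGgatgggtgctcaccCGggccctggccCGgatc
The Tfap2a promoter shown held 15 CpG, and 34.6% of all 32851 promoters in the table held at least as many. The Zeb2 promoter shown held 19 (28.1%) and the Tfap2b promoter shown 8 (48.6%), where the median promoter held 7. These 3 promoters lay inside their genes and not at the outermost gene starts (Tfap2a chr13:40713802-40738238, Tfap2b chr1:19208908-19238845, Zeb2 chr2:44983512-45117442). Their CpG counts describe these starts only. Snai1 had the densest promoter of the 5 genes, with 34 CpG (7.73% held at least as many), and differed in position: no base of it lay in a Suz12 region and 170 lay in H3K27me3 regions. It is shown with the E-box CAGGTG, the sequence that Snail and Zeb proteins bind, in capitals. Both strands were searched, and the match lies on the strand opposite to the one printed, so it reads as CACCTG.
Snai1 chr2:167537945-167538244 (plus strand): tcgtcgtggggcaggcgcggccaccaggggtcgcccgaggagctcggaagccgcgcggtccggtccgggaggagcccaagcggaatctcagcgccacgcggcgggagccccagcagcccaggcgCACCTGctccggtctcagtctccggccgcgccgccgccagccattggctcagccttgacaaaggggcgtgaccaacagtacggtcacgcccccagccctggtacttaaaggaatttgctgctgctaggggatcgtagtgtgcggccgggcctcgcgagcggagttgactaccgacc
This match, 126 bases before the start, was the only one in the 9 promoters, and 20.2% of all promoters held the sequence on either strand. A match describes the letters in this window and does not show binding.

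Levels are given as scaled reads, the whole reads of a library, solved from the deposited mean values, divided by its size factor. Sums ran from 26085140 to 31499803 scaled reads per table. A library letter (a to d) only names a library and is not tied to a replicate number. Scaled reads are compared between groups of one cell type and never between genes. The Suz12 transcript checked the labels: its deposited log2 fold change against WT, in the authors' deposited table, was -1.82 ± 0.22 (SE, adjusted p = 8.21e-15) in KO stem cells but also -1.85 ± 0.28 (adjusted p = 3.84e-09) in the libraries labelled KO-L3D, which should carry the long isoform. Among precursors, WT library a stood apart, with neuron markers summing to 6231 scaled reads against 29893 to 33190 in the other WT libraries, and pluripotency markers to 8494 against 1135 to 3490. CSex4 and KO-L precursors also kept high pluripotency markers (32203 to 32636 and 14947 to 22304). Among stem cells, endoderm markers summed to 1785 in WT library c against 72.4 to 76.9 in the other WT libraries. Trophoblast markers reached 10708 in KO-L3D library a and 11245 in KO-S3D library a, against 212 to 437 in WT. In bulk RNA, fewer cells of a type and less RNA per cell cannot be told apart.

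Several of these genes rose in KO stem cells, and Tfap2b, Zeb1 and Zeb2 fell in KO precursors. A gene was called where the deposited adjusted p was under 0.05. In KO stem cells 5 of the 9 rose (Sox10, Tfap2a, Snai2, Twist1 and Zeb1) and none fell, where 11.0% of all tested genes rose and 7.27% fell. The median log2 fold change of the 9 was 1.77, against 0.01 over all genes. Markers of other cell types were also higher in KO stem cells: trophoblast markers summed to 884 to 2124 scaled reads against 212 to 437 in WT, with 4 of 5 called higher, and mesoderm markers to 516 to 594 against 151 to 176, with 2 of 5 called higher. Their part in the rise of the 9 genes was not tested. Tfap2b had no adjusted p there, and an adjusted p was given for 5 to 9 of the genes in the other stem cell tables and for all 9 in every precursor table. The libraries labelled KO-L3D had 2 higher (background 8.22%) and 0 lower (10.1%). KO-S stem cells had 2 higher (4.28%) and 0 lower (3.63%), and CSex4 stem cells 1 higher (1.72%) and 0 lower (0.695%). By DESeq2, none of the 9 was called in KO-L stem cells (1.46% of genes rose and 0.771% fell), where 1 had an unadjusted p under 0.05. None was called in the KO-S3D libraries either (2.05% and 1.18%), where 1 had an unadjusted p under 0.05, nor in Deltaex4 stem cells, where no gene of the whole table rose or fell (0% and 0%) and 0 of the 9 had such a p. In these 6 comparisons the median of the 9 ran from -0.65 in KO-S to 1.37 in KO-L, against -0.04 to 0.02 over all genes.

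In KO precursors 3 of the 9 fell (Tfap2b, Zeb1 and Zeb2) and none rose, where 9.85% of genes fell and 11.6% rose (median of the 9 -0.54, of all genes -0.01). A separate deposited comparison of the other WT pair (libraries c and d) with the same KO libraries gave 4 higher in WT (Sox9, Tfap2b, Zeb1 and Zeb2) and 1 lower (Snai1), against 15.6% and 17.3% of all genes. CSex4 precursors had 3 lower than WT (Sox9, Tfap2b and Zeb2; background 1.45%) and 0 higher (4.08%), with a median of -0.96 against -0.04. Deltaex4 precursors had 0 called by DESeq2 (0.0289% of genes rose and 0.0520% fell), and 0 of the 9 had an unadjusted p under 0.05. Against KO, KO-L precursors had 5 higher and 2 lower (10.9% and 13.8% of genes), and KO-S precursors 3 higher and 2 lower (16.4% and 18.0%). The medians were 1.26 and 0.02, against 0.01 and 0.0026 over all genes. All stem cell comparisons share the 3 WT libraries, and all precursor comparisons with KO share its 2 libraries.

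**Figure D1:**
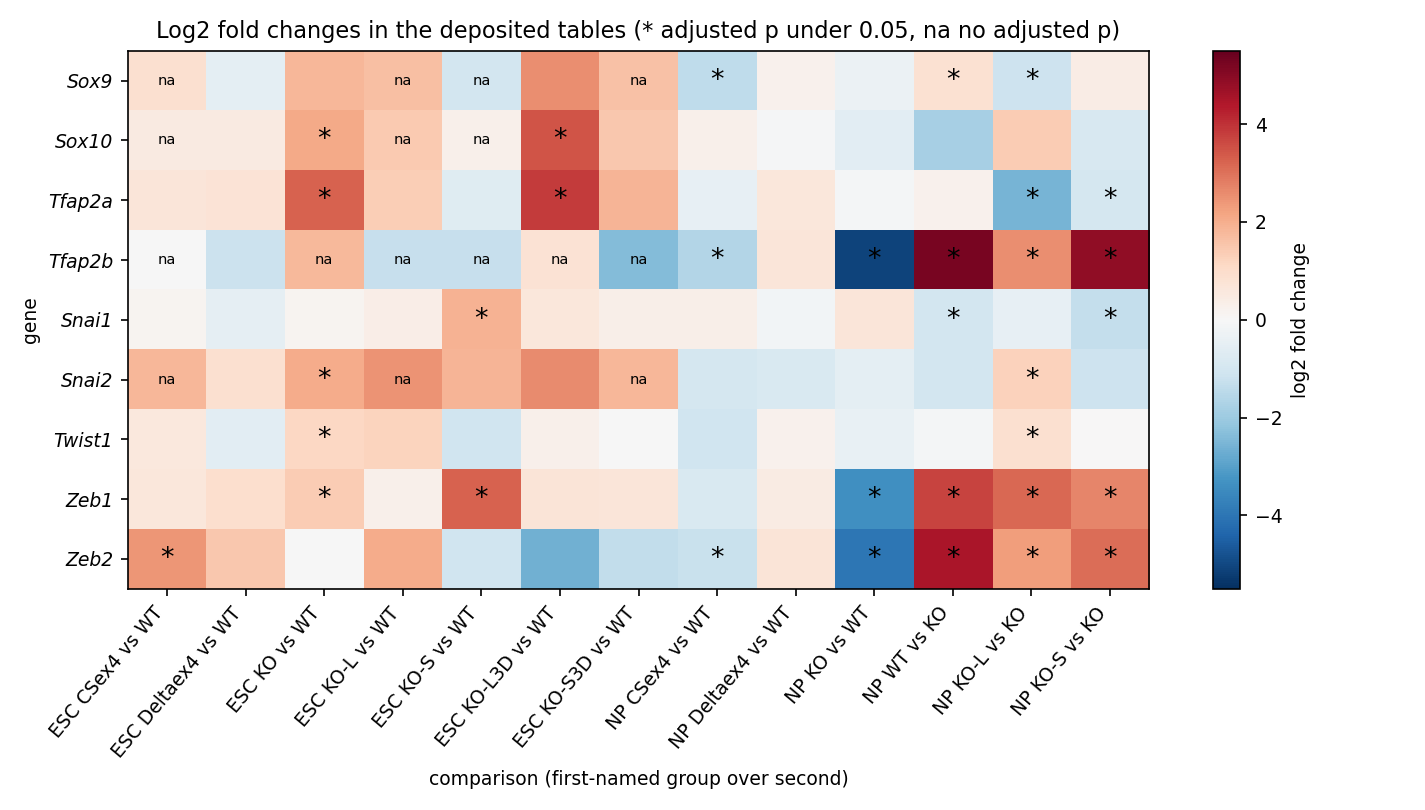
Deposited log2 fold change of each of the 9 genes (rows) in each of the 13 comparisons (columns), as color. A star marks an adjusted p under 0.05 and na a gene without one. Zeb1, Zeb2 and Tfap2b carry the lowest values in KO precursors, and Tfap2a the highest in KO and KO-L3D stem cells.

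Tfap2a, an AP-2 factor needed for crest induction, showed the widest rise in stem cells. WT libraries held 14.3, 16.0 and 28.0 scaled reads, KO libraries 211, 139 and 186, and the libraries labelled KO-L3D 380 and 241. All KO and KO-L3D values lay above all WT values. The authors' deposited tables gave a log2 fold change of 3.23 ± 0.45 (SE, adjusted p = 7.09e-11) for KO and 3.83 ± 0.61 (adjusted p = 3.18e-08) for KO-L3D. KO-L libraries split, at 124 and 23.6, while KO-S libraries, at 13.7 and 13.2, lay just below WT. KO-S3D libraries held 161 and 37.0, both above WT, and the deposited table gave 1.89 ± 0.95 (adjusted p = 0.338), which did not pass. The high library of each 3D pair was the one with the high trophoblast sum; Tfap2a is also made in trophoblast, and the part of those cells in its level was not tested.

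In precursors Tfap2a overlapped between KO and WT and was lowest in KO-L. WT held 418, 443, 539 and 401 scaled reads, KO 479 and 333, KO-L 80.2 and 58.6, and KO-S 203 and 203. Both rescues lay below KO and below WT without overlap. Against KO, the deposited tables gave -2.54 ± 0.39 (adjusted p = 1.70e-09) for KO-L and -0.98 ± 0.33 (adjusted p = 0.0131) for KO-S. CSex4 (327 and 308) lay just below WT without a call, and Deltaex4 (841 and 538) overlapped it.

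Tfap2b, the related AP-2 factor, was called in precursors and in no stem cell table. No stem cell library held more than 3.22 scaled reads, so differences there were not detectable at this depth. In precursors WT held 384, 1304, 853 and 745, and KO 23.3 and 19.3. KO lay far below every WT library. The deposited table gave -5.09 ± 0.53 (SE, adjusted p = 6.62e-20) for KO over WT, and that of the other WT pair gave 5.23 ± 0.43 (adjusted p = 3.49e-32) for WT over KO. Without WT library a or b, the log2 ratio of mean scaled reads of KO to WT went from -5.31 to -5.94 or -4.17. KO-S libraries (626 and 637) lay within the WT range, and KO-L libraries (140 and 110) between KO and WT. Over KO, the deposited tables gave 4.89 ± 0.39 (adjusted p = 2.50e-34) for KO-S and 2.55 ± 0.65 (adjusted p = 7.03e-04) for KO-L.

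CSex4 precursors held less Tfap2b than WT, at 222 and 235 scaled reads, and Deltaex4 precursors, at 1275 and 995, did not. Its log2 fold change was -1.63 ± 0.46 (SE, adjusted p = 0.0118) in the authors' deposited table. The log2 ratio of mean scaled reads was -1.89 with both WT libraries of that table, -2.51 without library a and -0.75 without library b. The Deltaex4 response exceeded the CSex4 response by 2.30 ± 0.69 on the log2 scale (two-sided normal test of the difference, adjusted p = 0.0480), where 1.78% of genes differed. In CSex4 precursors 5 of 5 pluripotency markers were called higher than in WT (4.08% of all genes) and 3 of 5 neural precursor markers lower (1.45%). Neural precursor markers summed to 5084 to 5301 against 7800 to 20440 in WT. The part of cell state in the Tfap2b level was not tested.

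**Figure D2:**
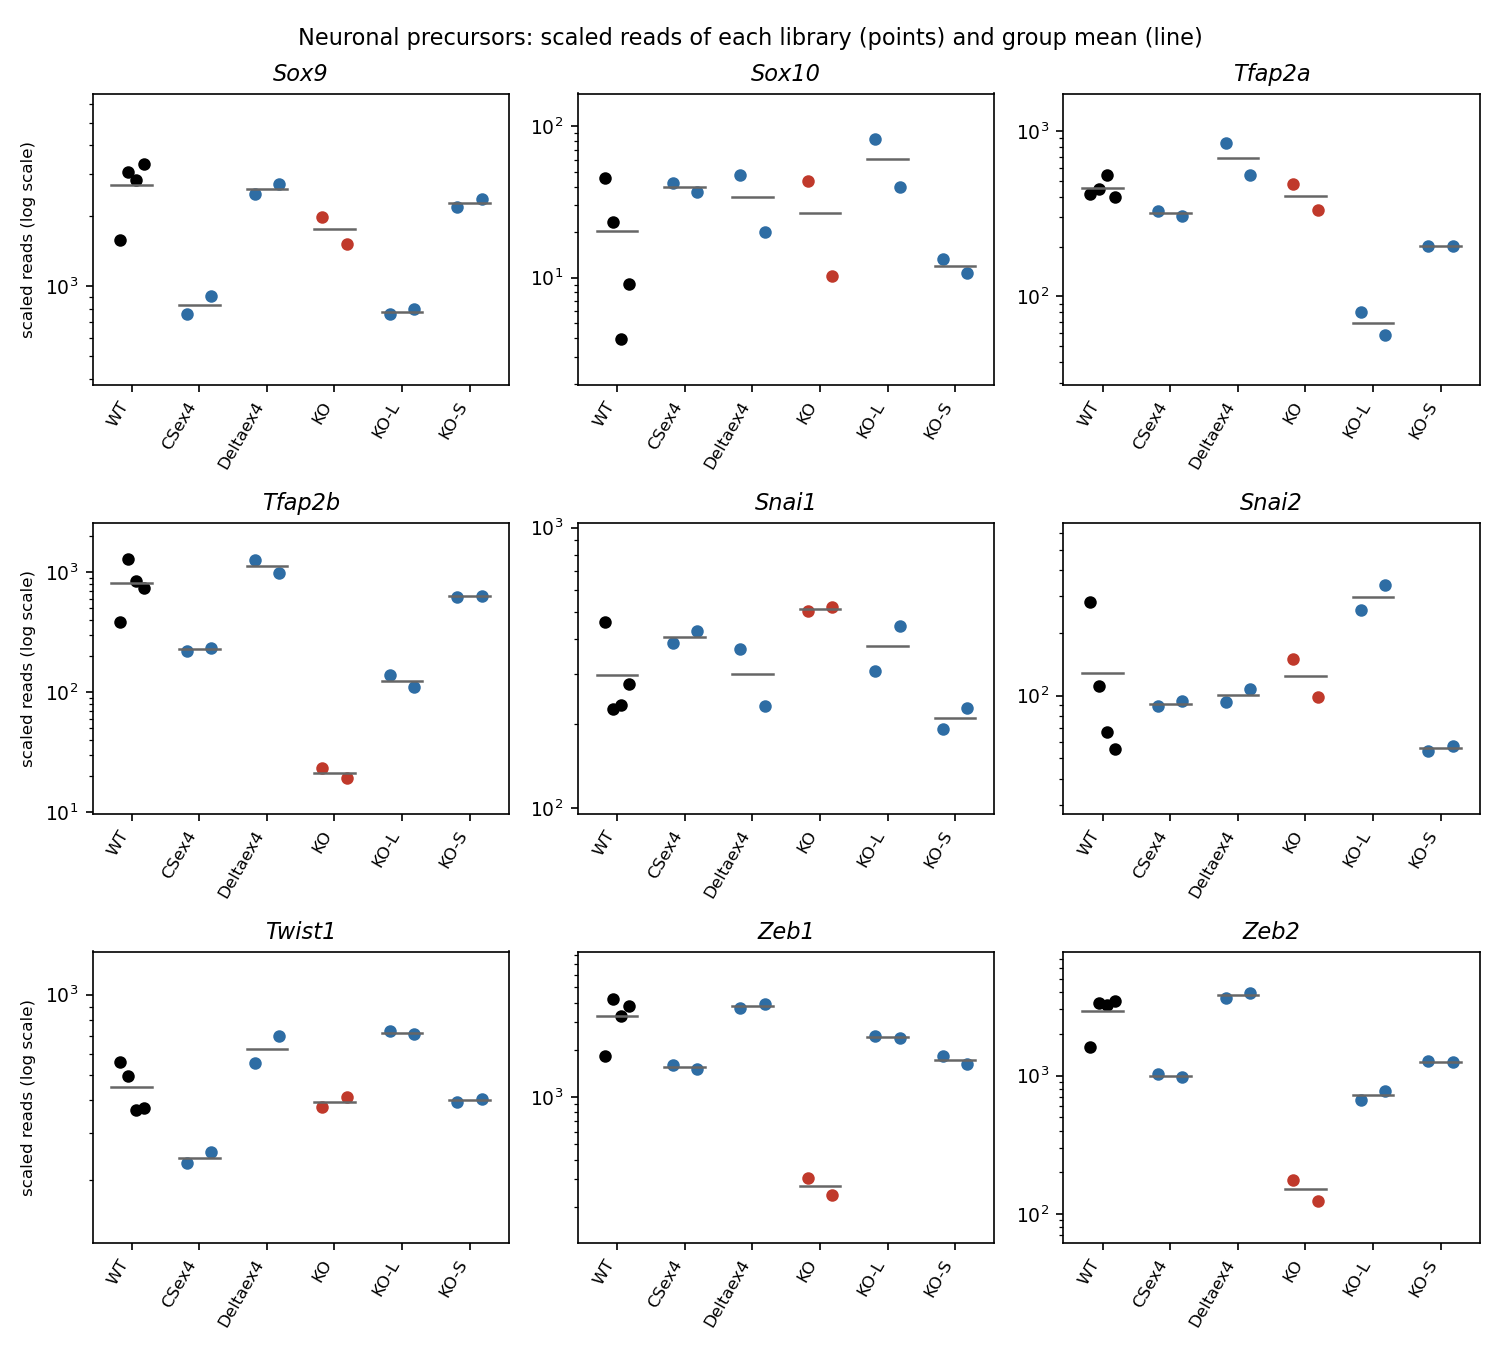
Scaled reads of each precursor library (points, log axis) and group mean (line) for the 9 genes in the 6 groups. Tfap2b, Zeb1 and Zeb2 sit lowest in KO, and Tfap2a, Sox9 and Tfap2b differ between the long and short isoform rescues.

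Sox9, which acts in crest precursors, neural stem cells and cartilage, fell in CSex4 precursors and was called in no stem cell table. Stem cell libraries ran from 1.05 (KO-S) to 58.0 (KO-L3D), with WT at 3.81, 5.99 and 3.36 and KO at 24.9, 11.0 and 12.5. KO lay above WT in all 3 libraries, yet the deposited table gave 1.82 ± 0.98 (SE, adjusted p = 0.203). In precursors WT held 1566, 3076, 2846 and 3329 scaled reads, CSex4 757 and 907, and KO-L 759 and 794. Both groups lay below every WT library, while KO (1982 and 1515) overlapped WT and KO-S (2168 and 2367) lay within it. For CSex4 against WT, the authors' deposited table held -1.41 ± 0.38 (adjusted p = 0.00598). For KO-L against KO it was -1.16 ± 0.24 (adjusted p = 1.19e-05) in the deposited table, so the long isoform lay further from WT than the knock-out did. CSex4 and KO-L were also the groups with the highest pluripotency sums, and the part of undifferentiated cells in the Sox9 level was not tested.

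Sox10, the factor of crest progenitors, Schwann cells and melanocytes, rose in KO stem cells from a low base. WT held 10.5, 12.0 and 4.48 scaled reads, KO 38.3, 30.0 and 42.6, and KO-L3D 125 and 51.9. Neither group overlapped WT. The authors' deposited tables gave 2.10 ± 0.69 (SE, adjusted p = 0.0166) for KO and 3.45 ± 0.95 (adjusted p = 0.00378) for KO-L3D, whose log2 ratio of mean scaled reads fell from 3.30 to 2.53 without library a. Schwann cell and melanocyte markers summed to 1331 to 2017 in KO-L3D and 538 to 579 in KO, against 309 to 410 in WT, where Dct was at 0. In precursors Sox10 stayed between 3.93 and 82.3 scaled reads with no call, and WT alone covered 3.93 to 45.5.

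Snai1, a zinc-finger repressor of Cdh1, rose in KO-S stem cells, to 339 and 341 scaled reads against 46.7, 57.9 and 140 in WT. KO, at 87.2, 99.9 and 58.1, overlapped WT. The authors' deposited table gave 1.91 ± 0.50 (SE, adjusted p = 0.00345) for KO-S and 0.13 ± 0.43 (adjusted p = 0.889) for KO. WT library c was the highest WT library and the one with the high endoderm sum, and without it the log2 ratio for KO-S went from 2.06 to 2.70. Endoderm markers summed to 3023 to 4108 in KO-S, where the highest Snai1 stood, and their part in it was not tested. Of these 4 markers, 0 were called in KO-S and 3 had an unadjusted p under 0.05 (DESeq2). In precursors KO held 506 and 521 against 460, 225, 234 and 277 in WT, above all 4. KO-S fell below KO, to 191 and 227, with a deposited value of -1.30 ± 0.30 (adjusted p = 1.37e-04) in the authors' deposited table. The deposited comparison of WT libraries c and d with KO gave -1.01 ± 0.37 (adjusted p = 0.0221), while the comparison with a and b gave no call.

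Snai2, the family member most used as a crest marker, rose from a low level in KO stem cells. WT held 13.3, 7.98 and 3.36 scaled reads and KO 25.8, 30.0 and 39.5, without overlap, and the deposited table gave 2.06 ± 0.78 (SE, adjusted p = 0.0454). That adjusted p became 0.0561 when every gene was counted in the adjustment. In precursors WT spread from 55.3 to 282, with library a highest. KO-L held 257 and 337, KO 150 and 98.9, and KO-S 54.4 and 57.5. Against KO, the authors' deposited table gave 1.26 ± 0.43 (adjusted p = 0.0152) for KO-L. The KO-S response was lower than that of KO-L (difference on the log2 scale -2.39 ± 0.71, adjusted p = 0.0109).

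Twist1, a basic helix-loop-helix factor of cranial crest and mesoderm, rose modestly in KO stem cells. WT held 67.6, 58.9 and 45.9 scaled reads and KO 136, 101 and 142, all above WT, and the deposited table gave 1.14 ± 0.35 (SE, adjusted p = 0.0112). KO-L (121 and 120) also lay above WT, without a call, and KO-S (30.6 and 18.7) below it. In precursors KO-L held 728 and 711, above all WT (559, 494, 367 and 375) and KO (377 and 413) libraries. The authors' deposited table gave 0.87 ± 0.28 (adjusted p = 0.0109) for KO-L over KO. KO-L precursors also had the highest mesoderm sum, 2098 to 2288 against 546 to 863 in KO, and its part in the Twist1 level was not tested. CSex4 precursors (232 and 254) lay below WT, and the deposited value of -1.11 ± 0.39 (adjusted p = 0.0730) in the authors' deposited table did not pass.

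**Figure D3:**
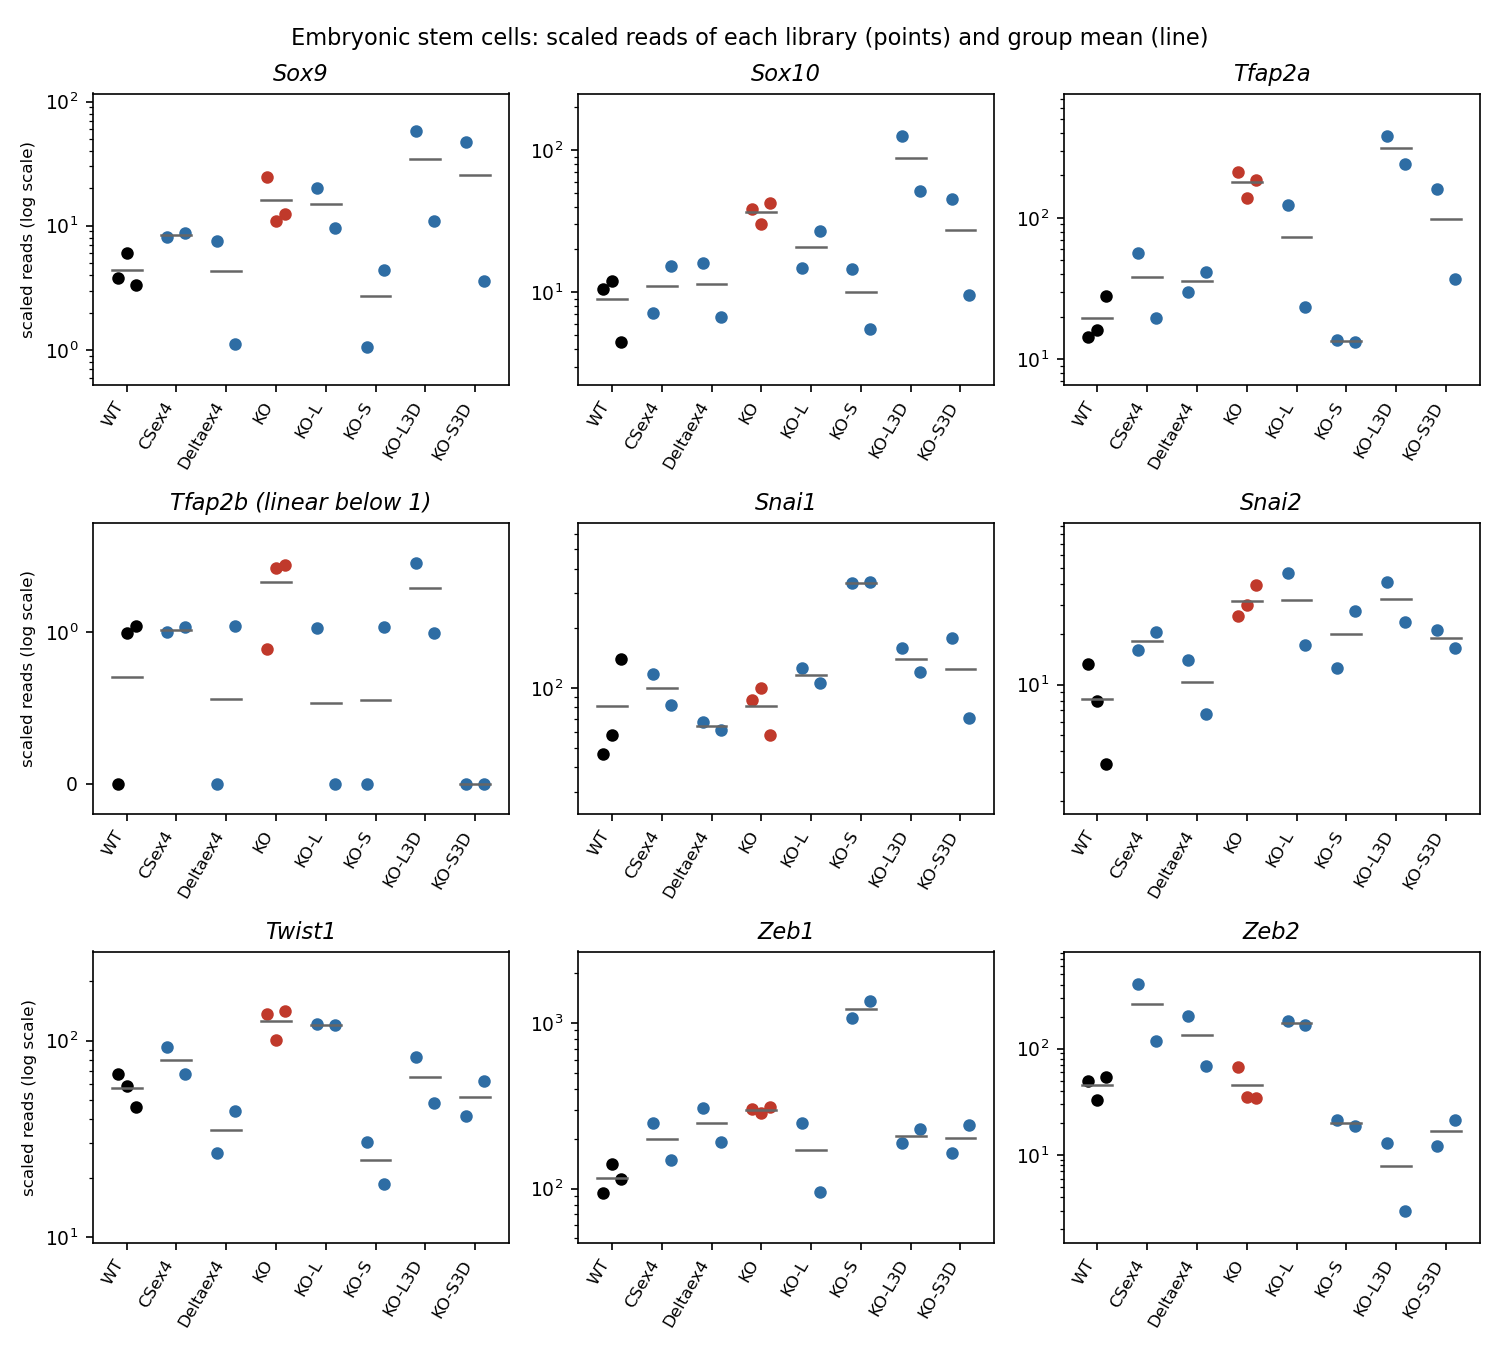
Scaled reads of each stem cell library (points, log axis; Tfap2b linear below 1) and group mean (line) for the 9 genes in the 8 groups. Tfap2a and Sox10 are highest in KO-L3D, Zeb1 and Snai1 in KO-S, and Zeb2 in CSex4.

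Zeb1, a zinc-finger homeodomain repressor of epithelial genes that is also made in neural progenitors, changed in both cell types but in opposite directions on loss of Suz12. In stem cells WT held 94.3, 141 and 114 scaled reads, KO 304, 284 and 310, and KO-S 1064 and 1348. Neither KO nor KO-S overlapped WT, and KO-S was the highest. KO-S was also the group with the highest endoderm sum (3023 to 4108, with 0 of 4 markers called), and the part of endoderm cells in the Zeb1 level was not tested. The authors' deposited tables gave 1.38 ± 0.28 (SE, adjusted p = 2.45e-05) for KO and 3.24 ± 0.34 (adjusted p = 1.51e-18) for KO-S. The rise in KO-S exceeded that in KO-L (248 and 95.7) by 2.95 ± 0.66 on the log2 scale (adjusted p = 7.31e-04; 3.94% of all genes differed), and the KO-S3D response was below the KO-S response (difference -2.59 ± 0.69, adjusted p = 0.0282; 0.732% of genes).

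In precursors Zeb1 was far higher in WT, at 1826, 4230, 3267 and 3791 scaled reads, than in KO, at 307 and 236. Neuron markers also summed to less in KO (1425 to 1873 against 6231 to 33190 in WT), as did neural precursor markers (2531 to 2806 against 7800 to 20440). Their part in the levels of Zeb1, Zeb2 and Tfap2b, and in those of Scrt1 and Scrt2, was not tested. The deposited tables gave -3.37 ± 0.38 (SE, adjusted p = 4.37e-17) for KO over WT and, with the other WT pair, 3.70 ± 0.30 (adjusted p = 1.58e-33) for WT over KO. Leaving out WT library a or b changed the log2 ratio of KO to WT from -3.48 to -3.96 or -2.75. KO-L (2435 and 2369) and KO-S (1813 and 1634) both lay well above KO, and the authors' deposited tables gave 3.15 ± 0.24 (adjusted p = 7.06e-38) and 2.67 ± 0.22 (adjusted p = 2.19e-31). The 2 rescues were not shown to differ in Zeb1 (difference -0.48 ± 0.32, adjusted p = 0.448). CSex4 (1590 and 1512) lay just below WT without a call, and Deltaex4 (3667 and 3890) overlapped it.

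Zeb2, the paralog of Zeb1 and a factor of crest and of developing neurons, did not rise in KO stem cells but fell in KO precursors. Stem cell WT libraries held 49.5, 32.9 and 53.8 scaled reads and KO 66.7, 35.0 and 34.3, with a deposited log2 fold change of -0.04 ± 0.50 (SE, adjusted p = 0.975) in the authors' deposited table. CSex4 stem cells held 409 and 118, and the authors' deposited table gave 2.41 ± 0.58 (adjusted p = 0.00471). Both values were above WT but far apart: the log2 ratio was 2.54 with both, 1.38 without library a and 3.17 without library b. Library a also held the higher mesoderm sum (1018 against 292 in library b and 151 to 176 in WT) and trophoblast sum (1323 against 635, and 212 to 437 in WT), whose part was not tested. KO-L (180 and 168) lay above WT and the libraries labelled KO-L3D (12.9 and 2.99) below it, and this difference was -4.69 ± 1.29 (adjusted p = 0.0118; 4.88% of genes differed).

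In precursors Zeb2 had the smallest adjusted p of the 9 genes in the comparison of KO with WT. WT held 1598, 3369, 3217 and 3446 scaled reads, KO 177 and 124, KO-L 665 and 777, and KO-S 1274 and 1250. Both rescues lay between KO and WT. Without WT library a or b, the log2 ratio of KO to WT went from -4.04 to -4.48 or -3.41. The deposited tables gave -3.98 ± 0.37 (SE, adjusted p = 7.18e-24) for KO over WT, and 2.28 ± 0.33 (adjusted p = 8.56e-11) for KO-L and 3.09 ± 0.26 (adjusted p = 3.86e-30) for KO-S over KO. The rescues did not differ detectably from each other (0.81 ± 0.42, adjusted p = 0.254). CSex4 precursors (1018 and 970) lay below WT and Deltaex4 (3653 and 3936) above it. For CSex4 the authors' deposited table gave -1.22 ± 0.36 (adjusted p = 0.0154), and the Deltaex4 response exceeded it by 1.93 ± 0.51 (adjusted p = 0.0141). The log2 ratio for CSex4 was -1.32 with both WT libraries, -1.76 without a and -0.68 without b. Pluripotency markers were higher in CSex4 precursors than in WT (sums of 32203 to 32636 against 1135 to 8494), and their part in the Zeb2 level was not tested.

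The long and short isoform rescues differed for other members. In precursors, 4 of 9 differed between KO-L and KO-S, where 10.3% of genes did. Pluripotency markers summed to 14947 to 22304 in KO-L precursors against 2349 to 2972 in KO-S, and mesoderm markers to 2098 to 2288 against 451 to 494. The part of cell state in the differences between the rescues was not tested. The KO-S response exceeded that of KO-L for Sox9 by 1.54 ± 0.31 (adjusted p = 2.51e-05), for Tfap2a by 1.57 ± 0.51 (adjusted p = 0.0272) and for Tfap2b by 2.34 ± 0.76 (adjusted p = 0.0242), and was lower for Snai2. In stem cells, only Zeb1 of 6 tested differed between KO-L and KO-S. CSex4 and Deltaex4 did not differ for any of 5 tested in stem cells, with 0 at an unadjusted p under 0.05 (0.0766% of genes differed).

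**Figure D4:**
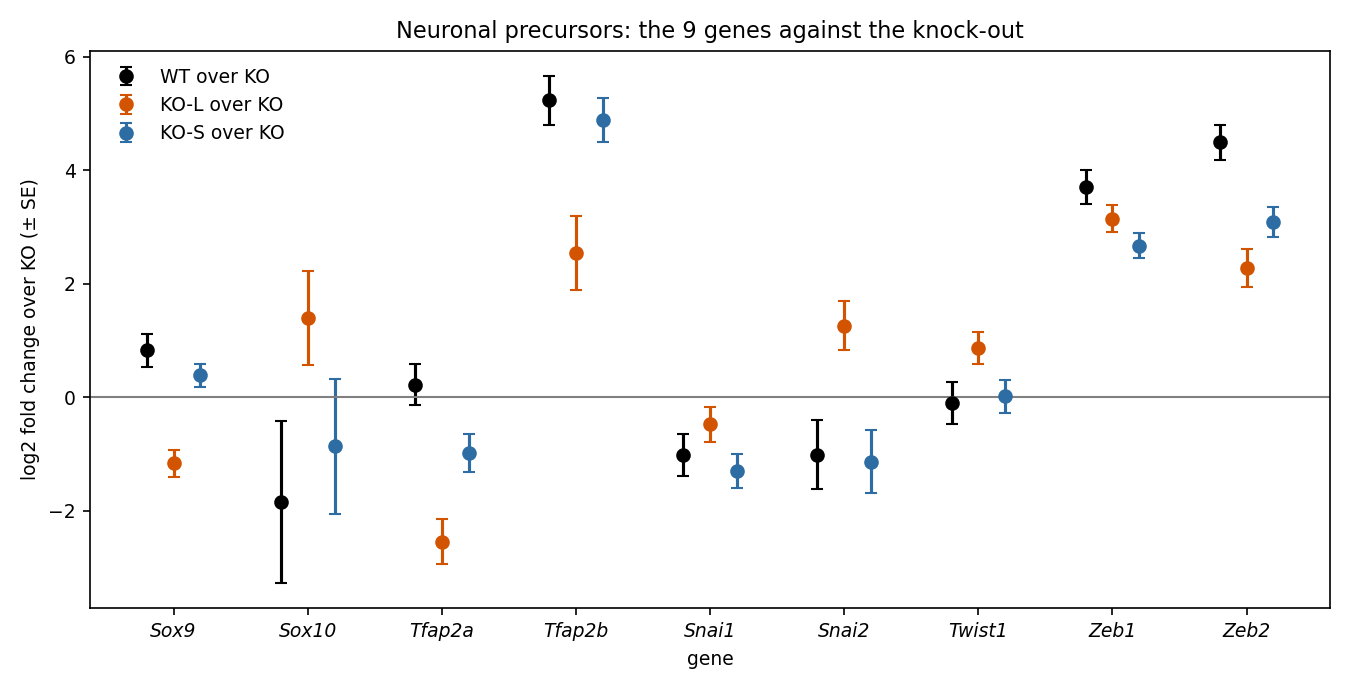
Deposited log2 fold change over KO (points, with SE as bars) of the 9 genes in WT, KO-L and KO-S precursors. Zeb1, Zeb2 and Tfap2b lie above 0 in all 3, and Sox9 and Tfap2a are lowest in KO-L.

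The response to loss of Suz12 differed between the cell types for 4 of 8 genes tested, where 14.3% of all genes differed. The response in precursors was below that in stem cells for each: the difference on the log2 scale was -3.34 ± 0.62 for Tfap2a (adjusted p = 3.94e-06), -1.55 ± 0.54 for Twist1 (adjusted p = 0.0351), -4.75 ± 0.47 for Zeb1 (adjusted p = 8.84e-21) and -3.94 ± 0.62 for Zeb2 (adjusted p = 2.34e-08). CSex4 gave 1 of 6, Zeb2 (-3.63 ± 0.68, adjusted p = 1.77e-05; 4.97% of genes), and Deltaex4 0 of 5, with 0 at an unadjusted p under 0.05 (0.00710%).

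The genes around these factors were read from 4 lists chosen with earlier results known. Among 14 epithelial genes, targets of the Snail and Zeb repressors among them, 13 rose and 0 fell in KO precursors, where 11.6% and 9.85% of all genes did (median log2 fold change 2.22, against -0.01 over all genes), among them in the authors' deposited table the tight junction genes Cldn3 (3.12 ± 0.37, adjusted p = 3.13e-15) and Cldn4 (2.60 ± 0.36, adjusted p = 4.27e-11). All 14 fell in KO-L precursors against KO (median -2.41), where 13.8% of all genes fell. In KO-S precursors 8 fell (median -0.53), where 18.0% of all genes fell, and Cdh1, the E-cadherin gene, had a deposited value of -1.45 ± 0.16 (adjusted p = 8.76e-18) in the authors' deposited table. Markers of trophoblast and endoderm, which are epithelial, summed to 6405 to 8904 and 8615 to 16057 in KO against 1061 to 2080 and 1870 to 6902 in WT, and their part was not tested. The epithelial median was lower in KO-L than in KO-S. Mean scaled reads of Zeb2 were lower in KO-L than in KO-S (721 against 1262). Those of Zeb1 (2402 against 1724), Snai1 (377 against 209), Snai2 (297 against 56.0) and Twist1 (720 against 400) were higher in KO-L. The part of these factors in the epithelial levels was not tested. In KO-S stem cells, where Zeb1 and Snai1 were highest, 9 of the 14 fell and 0 rose (median -1.17), where 3.63% and 4.28% of all genes did, among them Ocln (-3.55 ± 0.41, adjusted p = 2.30e-15) in the authors' deposited table. Endoderm markers in KO-S stem cells summed to 3023 to 4108 against 72.4 to 1785 in WT, with 0 of 4 called, and their part was not tested. In KO stem cells 2 of the 14 epithelial genes rose and 2 fell (11.0% and 7.27% of all genes).

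Of 14 mesenchymal genes, 10 rose and 2 fell in KO-L precursors against KO (median 1.61), where 10.9% and 13.8% of all genes did, with the collagen gene Col1a1 at 5.25 ± 0.24 (adjusted p = 1.25e-102) in the authors' deposited table. KO-S had 3 higher and 4 lower (median -0.06), near the 16.4% and 18.0% of all genes. KO precursors against WT libraries a and b had 2 higher and 6 lower (median -0.31, with 11.6% and 9.85% of all genes), among them Cdh2, the N-cadherin gene, at -2.85 ± 0.40 (adjusted p = 6.14e-11) in the authors' deposited table. The other WT pair (libraries c and d) over the same KO libraries gave 2 higher and 4 lower in WT (median -0.54, with 15.6% and 17.3% of all genes). With that pair more called genes were higher than lower in KO, though Cdh2 stayed lower in KO. CSex4 stem cells had 3 higher (1.72% of all genes), KO-L stem cells 5 higher (1.46%), and neither had one lower. Of the 14 epithelial genes, 3 rose and 0 fell in each of these 2 groups as well. KO stem cells had 2 mesenchymal genes higher and 0 lower (11.0% and 7.27%), and KO-S 3 higher and 1 lower (4.28% and 3.63%). The libraries labelled KO-L3D had 1 higher and 4 lower (8.22% and 10.1%), KO-S3D 0 higher and 3 lower (2.05% and 1.18%), and Deltaex4 0 called.

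Of 14 other neural crest genes, 5 rose and 0 fell in KO stem cells (median 1.17), where 11.0% and 7.27% of all genes did, among them Foxd3, a crest and pluripotency factor (1.87 ± 0.21, adjusted p = 4.21e-17) in the authors' deposited table. In KO precursors 2 rose and 6 fell (median -1.27), where 11.6% and 9.85% of all genes did, with the endothelin receptor gene Ednrb at -4.59 ± 0.44 (adjusted p = 2.31e-23) in the authors' deposited table. Of 8 family relatives, 0 were called in KO stem cells (0 at an unadjusted p under 0.05), and in KO precursors 0 rose and 2 fell, against the same shares of all genes: Scrt1 and Scrt2, neuronal relatives of the Snail factors, at -7.03 ± 0.74 (adjusted p = 3.60e-19) and -7.63 ± 0.73 (adjusted p = 5.94e-23) in the authors' deposited table. The other WT pair (libraries c and d) over KO gave 2 higher in WT, again Scrt1 and Scrt2, and 3 lower, where 15.6% and 17.3% of all genes were.

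Over the 13 comparisons, which share libraries, the genes with the most similar log2 fold changes to Zeb1 among 13586 genes were Tmcc2, Gm7819 and Boc (Pearson r = 0.97 each). For Zeb2 they were Top1 (0.97), Acsl3 (0.96) and Safb (0.95), and for Tfap2a Abcb4 (0.94), Gnal (0.92) and Sgcb (0.91). For Snai1 they were Hsd11b2 (0.90), Pmepa1 (0.90) and Procr (0.89), and for Twist1 Lbh, Noa1 and Galnt17 (0.90 each).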

How the data were processed

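RNA was measured by polyA RNA-seq in 32 samples (18 of stem cells, 14 of precursors). The submitters' processing notes name TopHat, Bowtie, DESeq2 and DiffBind and the builds mm10 and dm3, without versions or roles. Each of the authors' 13 deposited tables gives, per the file headers, a mean signal per gene (baseMean), a log2 fold change with its standard error, a p-value and an adjusted p. The tables hold the authors' own comparisons, which they name paired. A 2-library stem cell group thus uses 2 of the 3 WT stem cell libraries in its fold change. In the refits these were always libraries b and c, and library c is the one with the endoderm sum of 1785. Ratios of mean scaled reads in stem cells start from all 3 WT libraries. The 2 deposited region lists give coordinates. Strand use in counting is not given in the sources used here, so a gene and an antisense neighbour cannot be told apart. In each library, whole reads of the 9 genes and of marker genes were solved from the deposited means that tables share, with libraries matched between tables. The method solved 200 of 200 simulated test genes, and log2 fold changes refitted from the reads lay within 3.28e-04 of the deposited ones. These reads are a description, with no test.

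Differences between 2 comparisons were tested with a two-sided normal test on the deposited log2 fold changes and standard errors. They were adjusted by Benjamini-Hochberg over genes with a deposited baseMean of at least 10 in both, which is conservative where controls are shared. The members and lists were chosen with earlier results of these data known. All 9 members are named in every comparison where they bear on it, with Suz12 as the check. From each further list at most 4 genes with the smallest adjusted p in a comparison are named, and by likeness the 3 genes with the highest Pearson r for members with baseMean of at least 10 in all tables. Alternatives were an adjusted p of 0.01, other baseMean minimums, median centring, adjustment over every gene, the other WT pair and leaving out each library. ChIP samples enter only through the region lists. Python 3.11.15, numpy 2.4.6, pandas 2.3.3, scipy 1.17.1 and matplotlib 3.10.9 were used.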

Additional observations from a re-analysis of the deposited data

Results flagged for a closer look

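In WT precursors, Zeb2 had a library far from the other 3, at 1598 scaled reads against 3217 to 3446. It was the only 1 of 9 genes so marked among the groups of 4 libraries, and chance marks about 1 group in 20. It is library a, the one with the low neuron marker sum.

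The KO response differed between precursors and stem cells, by a test of the difference, for Zeb1 (-4.75), Zeb2 (-3.94), Tfap2a (-3.34) and Twist1 (-1.55), as precursors minus stem cells on the log2 scale. The CSex4 response differed in the same way for Zeb2 (-3.63), which was higher than WT in stem cells and lower in precursors.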

How the results depend on the processing

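Of 76 counts of called genes under alternatives, 68 stayed within 1.5 times the reported count. At an adjusted p under 0.01 the count was 2 in KO stem cells (5 reported), 1 in CSex4 precursors (3) and 3 for WT over KO precursors (5). With the other WT pair, KO precursors had 5 (3 reported), and WT over KO precursors 3 (5). Median centring gave 1 in KO-L stem cells (0 reported), Zeb2. With no baseMean minimum the difference of CSex4 and Deltaex4 precursors kept 1 (2 reported), and at a minimum of 50 that of KO-L and KO-L3D stem cells 0 (1 reported). Fewer or more genes enter under a changed minimum; the cause of the other changes was not tested. Of 180 alternatives for single genes, 163 kept their side of the threshold, 14 lost a call and 3 gained one, and none turned direction. Leaving out one library moved 11 of 532 log2 ratios by more than the replicate spread; the called values that moved over 1.5 times stand beside their results. The deposited statistics are the authors' own paired ones, and refits of the 9 genes used the same pairs. Beyond these deposited pairs, no paired analysis was possible because the tables carry no replicate numbers to use as blocks. Reads were recovered only for the 9 genes and marker genes, so no fit without the pairs was made across all genes. Low counts limit Tfap2b, Sox9, Sox10 and Snai2 in stem cells.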
